A study of Homo sapiens with 6 samples.

Results

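The genes described here encode the Polycomb complexes, the BAP1 deubiquitinase that acts on the same histone mark, and a pair of demethylases that remove the other Polycomb mark. They were chosen by symbol for the complex they belong to, with earlier results of these data known. All 34 were found among the 58735 genes of the deposited count table, and all 34 passed the filter on low counts that left 14844 genes for testing. RNA was sequenced from cultured human uveal melanoma cells of the Mum-2b line. The control group consisted of 3 libraries of wild-type genotype, and the knockdown group of 3 libraries of the same line in which NELFCD was depleted with a short hairpin RNA (shRNA). The protein belongs to the negative elongation factor, through which RNA polymerase II is paused close to gene starts. A single hairpin number appears in the knockdown titles, so effects of the target and of other transcripts that this hairpin may hit cannot be told apart. The control titles give NC and a number, and do not say whether those cells carried a control hairpin. The labels do not say whether replicates were separate cultures, and p-values then measure only the spread between these libraries.

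Polycomb proteins keep developmental genes silent through a pair of histone-modifying complexes. Polycomb repressive complex 1 (PRC1) attaches ubiquitin to histone H2A through the ligases RING1 and RNF2, which pair with 1 of the 6 PCGF proteins. Canonical PRC1 adds a CBX protein, which binds methylated histone H3, and a PHC protein, whereas variant PRC1 carries RYBP or YAF2. Polycomb repressive complex 2 (PRC2) methylates a lysine of histone H3 through EZH1 or EZH2, held by EED, SUZ12 and the histone-binding proteins RBBP4 and RBBP7. BAP1 with ASXL1 or ASXL2 removes ubiquitin from histone H2A, and BAP1 is a tumour suppressor known for its frequent loss in metastatic uveal melanoma. KDM6A and KDM6B remove methyl groups from the histone H3 lysine that PRC2 modifies.

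The promoters of a few genes on which the results turn are printed first, as the 250 bases before the annotated start in the RefSeq promoter table (GRCh38.p14), 5′ to 3′ on the gene's strand. An entry was found for 31 of the 34 genes, and where a gene had several, as PCGF5 and KDM2B with 4 each, the one nearest its start in the count table was used. The first pair belongs to PCGF5 and KDM2B, the variant PRC1 genes that fell in the knockdown within same-numbered pairs of libraries. Capitals mark each CG dinucleotide, the sequence that the zinc finger of the KDM2B protein binds where it is unmethylated. PCGF5 lies at chr10:91162762-91163011 on the plus strand and holds 41 CG dinucleotides. KDM2B lies at chr12:121581024-121581273 on the minus strand and holds 13.
PCGF5: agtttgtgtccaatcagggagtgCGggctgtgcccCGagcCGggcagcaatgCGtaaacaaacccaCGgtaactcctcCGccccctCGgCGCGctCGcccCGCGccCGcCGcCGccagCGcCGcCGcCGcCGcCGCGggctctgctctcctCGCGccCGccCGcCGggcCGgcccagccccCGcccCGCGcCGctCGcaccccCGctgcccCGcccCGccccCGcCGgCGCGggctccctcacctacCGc
KDM2B: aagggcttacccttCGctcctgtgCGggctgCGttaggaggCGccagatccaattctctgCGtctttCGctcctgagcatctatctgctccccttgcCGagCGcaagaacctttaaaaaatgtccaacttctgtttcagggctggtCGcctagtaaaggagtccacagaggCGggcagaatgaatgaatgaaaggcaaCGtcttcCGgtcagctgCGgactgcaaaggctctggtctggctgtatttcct
The median was 26 CG dinucleotides per window over the 31 matched genes and 11 over all 35116 entries of the table. The second pair belongs to SUZ12 and EZH1, PRC2 subunits that differed in opposite directions between replicate numbers. Capitals mark a match to an E2F word, the element that E2F factors bind at many cell cycle genes. SUZ12 lies at chr17:31936757-31937006 on the plus strand, and EZH1 at chr17:42745041-42745290 on the minus strand.
SUZ12: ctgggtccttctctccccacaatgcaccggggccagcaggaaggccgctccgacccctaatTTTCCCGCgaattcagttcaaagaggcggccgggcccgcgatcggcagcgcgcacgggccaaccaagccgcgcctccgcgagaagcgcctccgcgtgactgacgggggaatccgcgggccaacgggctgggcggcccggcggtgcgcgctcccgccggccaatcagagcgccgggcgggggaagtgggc
EZH1: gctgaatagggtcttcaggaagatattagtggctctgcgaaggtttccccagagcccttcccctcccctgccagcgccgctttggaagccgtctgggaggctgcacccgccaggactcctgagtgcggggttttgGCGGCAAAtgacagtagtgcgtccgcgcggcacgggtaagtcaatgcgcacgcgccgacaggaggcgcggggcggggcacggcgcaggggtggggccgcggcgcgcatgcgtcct
The words searched were TTTGGCGC, TTTCCCGC, TTTGCCGC and TTTCGCGC on both strands. They occurred in 4 of the 31 promoters (12.9%), those of EZH1, SUZ12, AEBP2 and PHF19, and in 2.79% of all entries. The words hold more G and C than A and T. Median GC content was 69.2% in the matched windows and 58% over all entries, so these percentages come from windows of unlike composition. The windows of the other PRC2 core genes, EZH2, EED, RBBP4 and RBBP7, held no such word. The windows of AEBP2 and PHF19 lie 36554 and 17708 bases from those genes' starts in the count table, so they belong to other annotated starts. Such a match describes the letters in this window and is not evidence of binding.

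Libraries held 14306733 to 16656630 counts, and single members 97 to 3575 counts per library. Replicate 1 of each group stood apart from replicates 2 and 3 of both groups. Summed expression of 15 DNA replication genes came to 1011 CPM (counts scaled to a common library total) in control replicate 1, against 3107 and 3101 CPM in the other two controls. In knockdown replicate 1 it came to 696 CPM, against 2755 and 2733 CPM in the others of that group. For this reason each comparison is given both without a replicate term and with the replicate number as a block, that is, within same-numbered pairs. NELFCD itself was at 65.5, 88.3 and 83.5 CPM in the controls and 20.7, 37.4 and 40.3 CPM in the knockdowns, with no overlap. Markers of the melanocyte lineage were scarce. Of 7 such genes 3 passed the filter, the 7 summed to 7.50 to 18.3 CPM per library, and TYR, which encodes the pigment enzyme tyrosinase, was at 0 in 5 of the 6 libraries. Markers of leukocytes, epithelium, endothelium, erythroid cells and liver summed to 0.480 to 4.80 CPM over 5 genes, of which only PECAM1 passed the filter.

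Within same-numbered pairs, 4 of the 34 genes fell in the knockdown and none rose. The variant PRC1 genes PCGF5 and KDM2B and the histone-binding PRC2 subunits RBBP4 and RBBP7 made up the 4. Their share was 11.8%, beside 8.01% of all genes tested that fell, 5.48% that rose and 13.5% that did either, in edgeR's quasi-likelihood test at a Benjamini-Hochberg adjusted p under 0.05. An unadjusted p under 0.05 was found with the block for 13 of the 34 and for 30.5% of all genes. Without the replicate term edgeR called none of the 34, as of all genes tested (0%), and 2 of the 34, PCGF5 and KDM2B, had an unadjusted p under 0.05, beside 6.43% of all genes. The median log2 fold change of the 34 was -0.10 with the block and -0.12 without it, against 0.00010 and -0.00057 over all genes tested. It was -0.22 in pair 1, -0.074 in pair 2 and -0.077 in pair 3, and without knockdown replicate 1 the median without the block was -0.033. That last fit kept control replicate 1, so replicate 1 was present in the control group alone. A lower level in all 3 pairs was found for 15 genes (44.1%) and a higher one for 3, beside 26.9% and 25.9% of all genes. In these bulk samples, fewer cells of a type and less RNA per cell cannot be told apart.

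**Figure D1:**
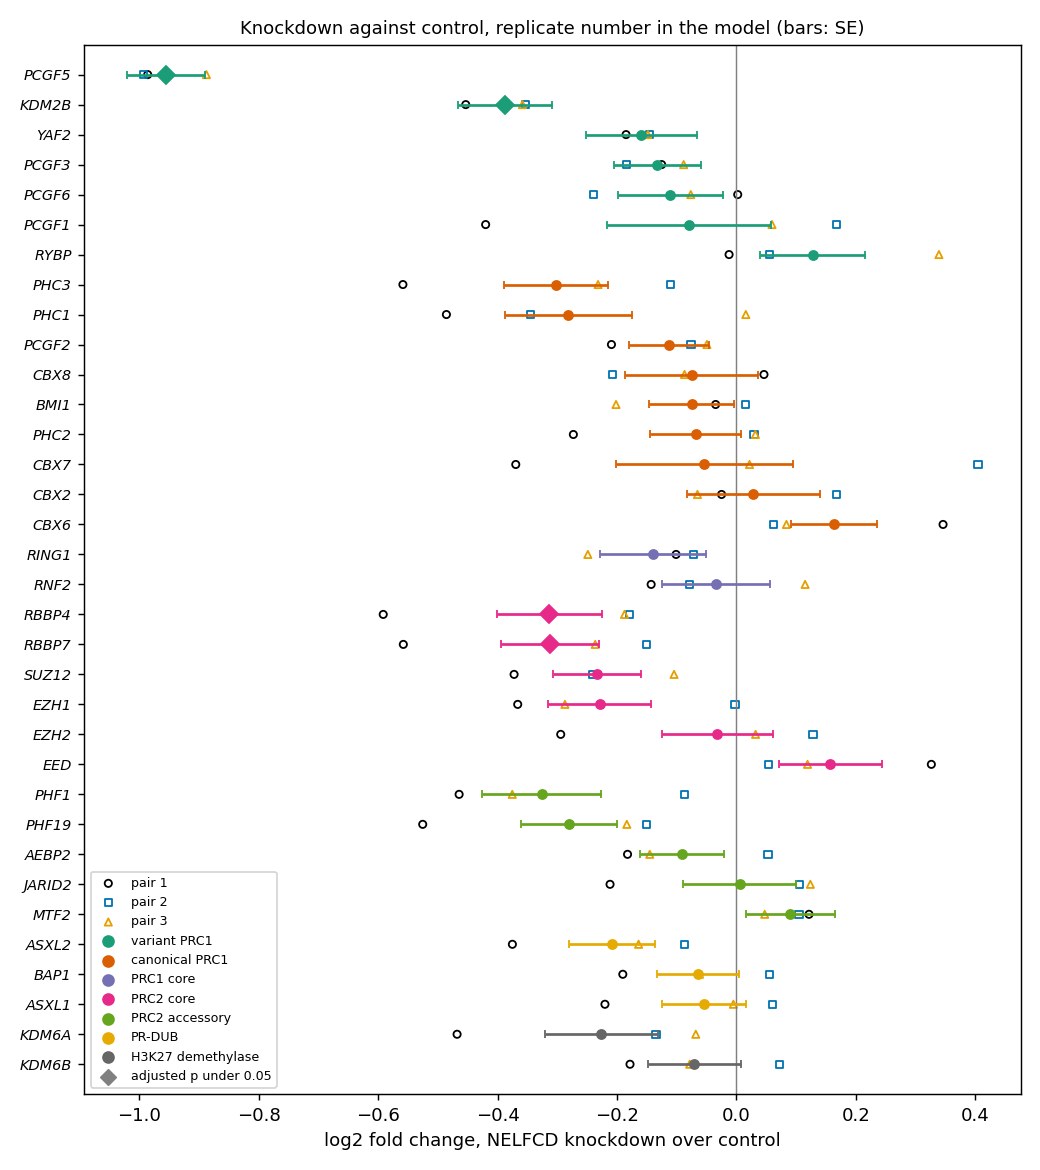
Log2 fold change of the knockdown over the control (horizontal axis) for each of the 34 genes, grouped by complex. Filled points are the edgeR values with the replicate number as a block, bars their standard error (SE), diamonds mark an adjusted p under 0.05, and open symbols are the 3 same-numbered pairs. PCGF5, at -0.96, lies apart from the other 33 genes, and its 3 pairs lie close together.

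The largest fold change of the 34 genes was found in variant PRC1. PCGF5 (ENSG00000180628, chr10:91163012-91284331, hg38) encodes the PCGF subunit that defines one form of variant PRC1. Its level was 105, 91.7 and 91.9 CPM in the controls and 52.8, 46.1 and 49.7 CPM in the knockdowns. Every knockdown library lay below every control library. Replicate 1 was the highest library of each group, by a log2 difference of 0.17 from replicates 2 and 3, smaller than for many other genes. The mean went from 96.1 ± 7.33 CPM (SD, n = 3) to 49.5 ± 3.34 CPM (SD, n = 3), which is 51.6% of the control. The log2 fold change was -0.96 ± 0.066 (SE) with the block (edgeR adjusted p = 0.000172) and -0.96 without it (edgeR adjusted p = 0.329). The 3 pairs gave -0.99, -0.99 and -0.89. PCGF5 was also called by DESeq2 without the block (DESeq2 adjusted p = 4.58e-09), where 0.748% of all genes fell.

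KDM2B (chr12:121429097-121581015) encodes the CpG-binding protein that brings the PCGF1 form of variant PRC1 to unmethylated CpG islands. It was at 37.8, 38.1 and 40.1 CPM in the controls and 27.6, 29.9 and 31.3 CPM in the knockdowns, again without overlap between the groups. The mean was 38.7 ± 1.28 CPM (SD, n = 3) in the control and 29.6 ± 1.88 CPM (SD, n = 3) in the knockdown, or 76.5% of the control. The log2 fold change was -0.39 ± 0.079 (SE) with the block (edgeR adjusted p = 0.0161) and -0.39 without it (edgeR adjusted p = 0.627). Leaving out pair 2 ended the call (edgeR adjusted p = 0.0736). The partner of KDM2B, PCGF1, was at 10.9 to 20.6 CPM in the controls and 12.2 to 15.4 CPM in the knockdowns, so the groups overlapped, and it did not pass (log2 fold change -0.08).

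The other 4 genes of variant PRC1 did not pass the test. RYBP, which bridges the ligase to ubiquitinated histone H2A, was at 42.7, 43.0 and 38.1 CPM in the controls and 42.3, 44.7 and 48.2 CPM in the knockdowns. Its log2 fold change was 0.13 ± 0.088 (SE), with groups that overlapped (edgeR adjusted p = 0.369). Fold changes on the log2 scale were -0.16 for its paralog YAF2, -0.13 for PCGF3 and -0.11 for PCGF6. PCGF3 assembles a variant PRC1 closely related to that of PCGF5, and was at 42.9 to 49.1 CPM in the controls and 37.7 to 45.0 CPM in the knockdowns.

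The make-up of the PCGF family can be read from FPKM values, which scale fragments by gene length as well as depth and so allow levels of different genes to be compared. PCGF2, a canonical PRC1 subunit, had the highest level per length, at a mean of 20.6 FPKM over the 6 libraries. BMI1 followed at 15.7 FPKM. The length used counts all annotated exons of a gene, 8306 bases for PCGF5 and 3511 for PCGF2, not the transcripts expressed. By CPM, PCGF5 had the highest control mean of the family, at 96.1 against 76.1 for PCGF2. Rankings and shares by FPKM rest on these lengths. The readthrough gene COMMD3-BMI1 shares 23.3% of the BMI1 exon bases on the same strand. Other genes on the opposite strand overlap 45.7% of the PCGF2 exon bases, and use of strand in counting was not given. The levels of BMI1 and PCGF2, and with them the family's shares, are therefore uncertain. PCGF5 made up 17.9%, 15.1% and 15.5% of the family's summed FPKM in control libraries, against 11%, 8.58% and 9.56% in knockdown libraries. Its mean share was 16.2 ± 1.51% (SD, n = 3) in the control and 9.71 ± 1.22% (SD, n = 3) in the knockdown, 6.44 percentage points less. The 2-sided exact permutation test gave p = 0.1, the lowest value possible with 3 libraries a group, and 0.7 after adjustment over 28 shares. No share of the 28 passed. Groups did not overlap for the share of YAF2 against RYBP, which was 25.1 ± 1.21% (SD, n = 3) in the control and 21.6 ± 1.75% (SD, n = 3) in the knockdown. They did not overlap either for the share of MTF2 in the Polycomb-like family, at 15.7 ± 2.68% (SD, n = 3) and 19.3 ± 1.05% (SD, n = 3).

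**Figure D2:**
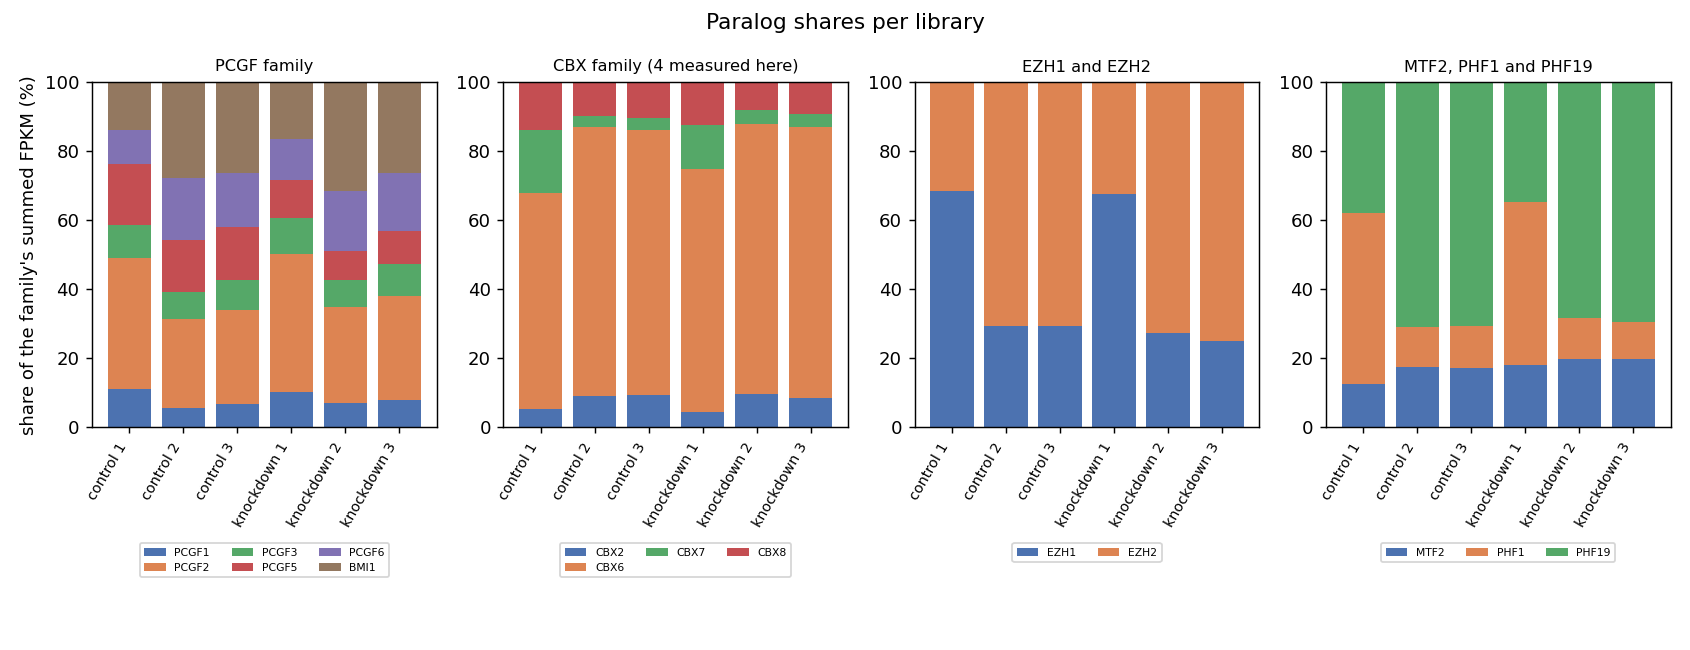
Share of each paralog in its family's summed FPKM (vertical axis, percent) in each library, with control and knockdown replicates 1 to 3 side by side. The PCGF5 band narrows from a mean of 16.2% to 9.71% in the knockdown, and the EZH and Polycomb-like families change composition in replicate 1 of both groups.

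Among the PRC1 core ligases, RING1 had the higher level per length. It was at 32, 24.8 and 26.1 CPM in the controls and 29.8, 23.6 and 22.0 CPM in the knockdowns, and these ranges overlapped. The log2 fold change was -0.14 ± 0.089 (SE) for RING1 (edgeR adjusted p = 0.326) and -0.03 ± 0.091 (SE) for RNF2 (edgeR adjusted p = 0.833), both with the block.

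None of the 9 canonical PRC1 genes passed the test in either direction. PCGF2 was at 93.9, 66.1 and 68.2 CPM in the controls and 81.2, 62.7 and 65.9 CPM in the knockdowns (log2 fold change -0.11, edgeR adjusted p = 0.294). As 45.7% of its exon bases overlap CISD3 and an unnamed transcript on the opposite strand, and use of strand in counting was not given, its level is uncertain. PHC2 had the highest FPKM of the 3 Polyhomeotic genes. It was at 115, 137 and 139 CPM in the controls and 94.8, 139 and 142 CPM in the knockdowns. The log2 fold change of PHC2 was -0.07 ± 0.076 (SE; edgeR adjusted p = 0.594). Its paralog PHC3 came near the threshold, at -0.30 ± 0.087 (SE; edgeR adjusted p = 0.0515). The log2 difference of PHC3 was largest in pair 1, at -0.56, against -0.11 and -0.23 in pairs 2 and 3. It passed in 7 of 12 fits that held the replicate number or left out replicate 1 of both groups.

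In CPM, CBX6, a chromodomain subunit, was the only one of the 34 genes for which every knockdown library lay above every control library. It was at 168, 186 and 194 CPM in the controls and 214, 194 and 205 CPM in the knockdowns. The gap was narrow, between 193.6 CPM in control replicate 3 and 193.8 CPM in knockdown replicate 2. In FPKM these 2 libraries were at 24.2 and 24.1, so the groups overlapped. The log2 fold change of CBX6, 0.16 ± 0.071 (SE), did not pass (edgeR adjusted p = 0.161). The reverse arrangement in CPM, with the knockdown lower, held for PCGF5, KDM2B and ASXL2. Groups that do not overlap were found for 7.52% of all genes with the knockdown higher and 7.38% with it lower. The other 5 canonical genes had log2 fold changes of -0.28 for PHC1 (18.1% of its exon bases overlap M6PR, and its named pseudogene had counts worth 14.3% of its own), -0.07 for CBX8, -0.07 for BMI1, -0.05 for CBX7 and 0.03 for CBX2.

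In the PRC2 core, RBBP4 and RBBP7 fell together within same-numbered pairs. They encode closely related WD-repeat proteins that bind histones, and they also serve in chromatin assembly and histone deacetylase complexes. RBBP7 (chrX:16839283-16870414) was at 158, 226 and 224 CPM in the controls and 107, 204 and 190 CPM in the knockdowns. RBBP4 (chr1:32651142-32686211) was at 96.8, 147 and 141 CPM in the controls and 64.3, 130 and 124 CPM in the knockdowns. In both genes the groups overlapped, each knockdown library was below the control of its own number, and replicate 1 was the lowest library of its group.

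The log2 fold change of RBBP7 was -0.31 ± 0.082 (SE) with the block (edgeR adjusted p = 0.0379) and -0.28 without it (edgeR adjusted p = 1). That of RBBP4 was -0.31 ± 0.088 (SE) with the block (edgeR adjusted p = 0.0473) and -0.28 without it (edgeR adjusted p = 1). The size of the fall rested on pair 1, where the log2 difference was -0.56 for RBBP7 and -0.59 for RBBP4. In pairs 2 and 3 it was -0.15 and -0.24 for RBBP7, and -0.18 and -0.19 for RBBP4. Leaving out pair 2 ended both calls (edgeR adjusted p = 0.0629 for RBBP7 and 0.0827 for RBBP4), and a filter at a mean of 5 CPM did so as well (0.0506 and 0.0605). Upper-quartile scaling ended that of RBBP4 (edgeR adjusted p = 0.0591). Leaving out pair 1 ended neither call, in a fit where 14.9% of all genes fell. Without knockdown replicate 1 and without the block, the values were -0.05 for RBBP7 and -0.02 for RBBP4. That fit kept control replicate 1, the lowest control library, so replicate 1 was present in the control group alone and lowered the control mean. SYNC on the opposite strand overlaps 18% of RBBP4 exon bases. Both genes kept a near constant ratio. The share of RBBP7 in their summed FPKM ranged from 66.3% to 67.6% over control libraries and from 66.3% to 68.1% over knockdown libraries. The 15 DNA replication genes moved in the same direction as this pair. Within pairs 7 of the 15 fell (46.7%, beside 8.01% of all genes) and none rose, with a median log2 fold change of -0.27, and their part in the fall of RBBP4 and RBBP7 was not tested.

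The 4 other core genes of PRC2 did not pass. EZH2, the methyltransferase that predominates in dividing cells, was at 31.5, 49.8 and 54.2 CPM in the controls and 25.7, 54.5 and 55.4 CPM in the knockdowns. Its log2 fold change was -0.03 ± 0.092 (SE; edgeR adjusted p = 0.849). SUZ12, the scaffold of the complex, was at 44.8, 81.3 and 79.0 CPM in the controls and 34.6, 68.8 and 73.5 CPM in the knockdowns, lower in each of the 3 pairs though the groups overlapped. It missed the threshold at -0.23 ± 0.074 (SE; edgeR adjusted p = 0.0715), and counts of its named pseudogene amounted to 10.6% of its own. EED, which reads methylated histone H3, was at 19.9, 39.3 and 41.8 CPM in the controls and 24.9, 40.8 and 45.4 CPM in the knockdowns. Higher in each pair but overlapping between groups, EED had a log2 fold change of 0.16 ± 0.086 (SE; edgeR adjusted p = 0.255). EZH1, the paralog of EZH2 found in non-dividing cells as well, had one of -0.23 ± 0.086 (SE; edgeR adjusted p = 0.112).

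The accessory subunits steer PRC2 to its target sites, and none of these 5 passed. PHF19, a Polycomb-like protein, was at 104, 194 and 194 CPM in the controls and 72, 175 and 171 CPM in the knockdowns. It was lower in each pair, with log2 differences of -0.53, -0.15 and -0.18. PHF19 missed the threshold at -0.28 ± 0.081 (SE; edgeR adjusted p = 0.0527), and it passed in 6 of the same 12 fits. PHF1, of the same family, was at -0.33 ± 0.099 (SE; edgeR adjusted p = 0.0625), and MTF2 at 0.09. AEBP2, a zinc finger subunit, was at 82.7, 92.2 and 99.4 CPM in the controls and 72.8, 95.7 and 89.9 CPM in the knockdowns, with a log2 fold change of -0.09 (edgeR adjusted p = 0.428). JARID2, which binds nucleosomes bearing ubiquitinated histone H2A, was at 37.6, 29.4 and 32.8 CPM in the controls and 32.4, 31.7 and 35.8 CPM in the knockdowns, and its log2 fold change was 0.01 ± 0.094 (SE; edgeR adjusted p = 0.977). Groups overlapped for these last genes.

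BAP1 was expressed in every library at levels among the higher of the 34 genes, with a mean of 22.5 FPKM over the 6 libraries. It was at 95.5, 122 and 133 CPM in the controls and 83.7, 127 and 127 CPM in the knockdowns, so the groups overlapped and replicate 1 was lowest in each. The log2 fold change was -0.06 ± 0.068 (SE; edgeR adjusted p = 0.58) with the block and -0.05 without it (edgeR adjusted p = 1). ASXL1, which activates BAP1, was at 170, 182 and 194 CPM in the controls and 146, 190 and 194 CPM in the knockdowns, with a log2 fold change of -0.05 ± 0.070 (SE; edgeR adjusted p = 0.65). ASXL2 was at 122, 116 and 115 CPM in the controls and 94.4, 109 and 103 CPM in the knockdowns. Its groups did not overlap, and it missed the threshold at -0.21 ± 0.072 (SE; edgeR adjusted p = 0.0913). Its 3 pairs gave -0.38, -0.086 and -0.16. Gene-level counts do not show whether the BAP1 protein was made or intact.

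The demethylase KDM6B was at 99.8, 29.1 and 30.0 CPM in the controls and 88.2, 30.6 and 28.4 CPM in the knockdowns. Replicate 1 was highest in both groups, and the groups overlapped. The log2 fold change was -0.07 ± 0.078 (SE) for KDM6B (edgeR adjusted p = 0.594) and -0.23 ± 0.095 (SE) for KDM6A (edgeR adjusted p = 0.147).

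**Figure D3:**
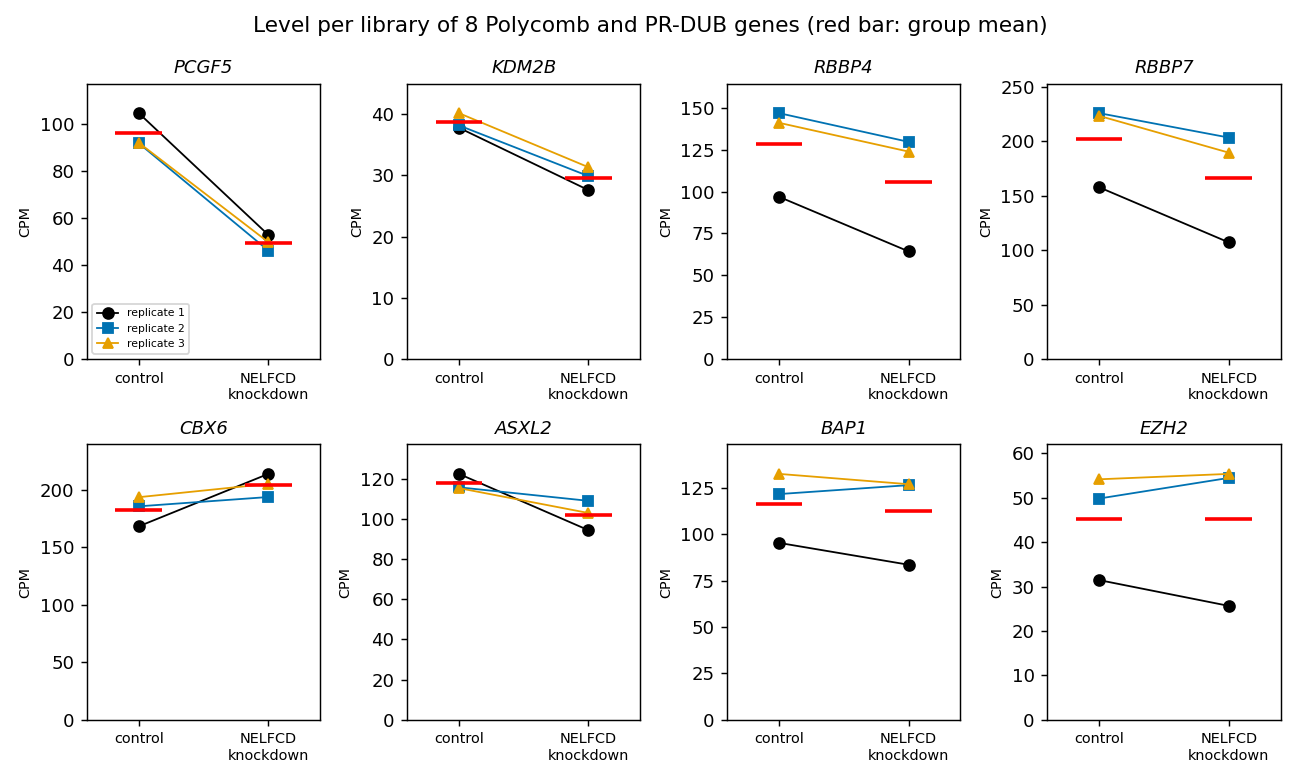
Expression in CPM (vertical axes, starting at 0) of 8 genes in each of the 6 libraries, with lines joining libraries of equal replicate number and red bars at the group means (n = 3). The PCGF5 points split by group at 46.1 to 52.8 against 91.7 to 105 CPM, whereas the BAP1 points overlap between groups and replicate 1 is lowest in each.

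More of these genes passed a test between replicate numbers than between groups. Replicate 1 was set against replicates 2 and 3 in an edgeR fit that also held the group. That contrast was chosen because replicate 1 had been seen to stand apart, so its tests describe these libraries. Of the 34 genes 27 passed (79.4%), 12 higher and 15 lower in replicate 1, beside 61.8% of all genes tested, 31.6% higher and 30.2% lower. A difference of at least 2-fold was found for 5 genes (14.7%), beside 18.6% of all genes.

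The 4 genes higher by at least 2-fold in replicate 1 came from different complexes. CBX7, the chromodomain subunit of canonical PRC1 common in stem and resting cells, was at 45.5, 6.87 and 8.50 CPM in the controls and 35.2, 9.09 and 8.64 CPM in the knockdowns. Its log2 difference between replicate 1 and the others was 2.28 ± 0.13 (SE), the largest of the 34. Other annotated genes overlap 21.6% of its exon bases, so its level is uncertain. PHF1 followed at 1.93 ± 0.089 (SE), with 72.2, 16.9 and 18.1 CPM in the controls and 52.3, 15.9 and 14 CPM in the knockdowns. KDM6B differed by 1.67 ± 0.071 (SE). EZH1 differed by 1.56 ± 0.077 (SE), with 106, 31.9 and 35.0 CPM in the controls and 82.4, 31.9 and 28.6 CPM in the knockdowns.

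The lower genes included 5 of the 6 PRC2 core genes, EZH1 being the exception. The log2 difference was -0.93 for SUZ12, -0.91 for EZH2, -0.90 for EED, -0.77 for RBBP4 and -0.69 for RBBP7. PHF19 was the only gene lower by at least 2-fold, at -1.08 ± 0.078 (SE). In canonical PRC1, BMI1 was lower by -0.99 and CBX2 by -0.70 on the log2 scale, and in variant PRC1, PCGF6 by -0.72. BAP1 was lower as well, at -0.51 ± 0.067 (SE). All 15 DNA replication genes were lower in replicate 1, with a median of -1.88, and their relation to the Polycomb genes was not tested.

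In replicate 1 the paralogs within a family thus stood in different proportions. EZH1 made up 68.6% of the summed EZH1 and EZH2 FPKM in control replicate 1, but 29.3% and 29.5% in control replicates 2 and 3. The knockdown libraries gave 67.5%, 27.5% and 25.1%. In the Polycomb-like family, PHF1 took 49.4%, 11.6% and 12.3% in control libraries, against 47.2%, 11.7% and 10.6% in knockdown libraries. PHF19 took 37.9%, 71.0% and 70.5% in the former and 34.7%, 68.4% and 69.5% in the latter. By FPKM, the more abundant EZH paralog and the most abundant Polycomb-like gene therefore differed between replicate 1 and the others in both groups. The genes that did not pass were PCGF3, JARID2, RYBP, CBX6, ASXL2, KDM2B and YAF2. PCGF5 passed with a small difference of 0.17 ± 0.064 (SE; edgeR adjusted p = 0.0384).

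**Figure D4:**
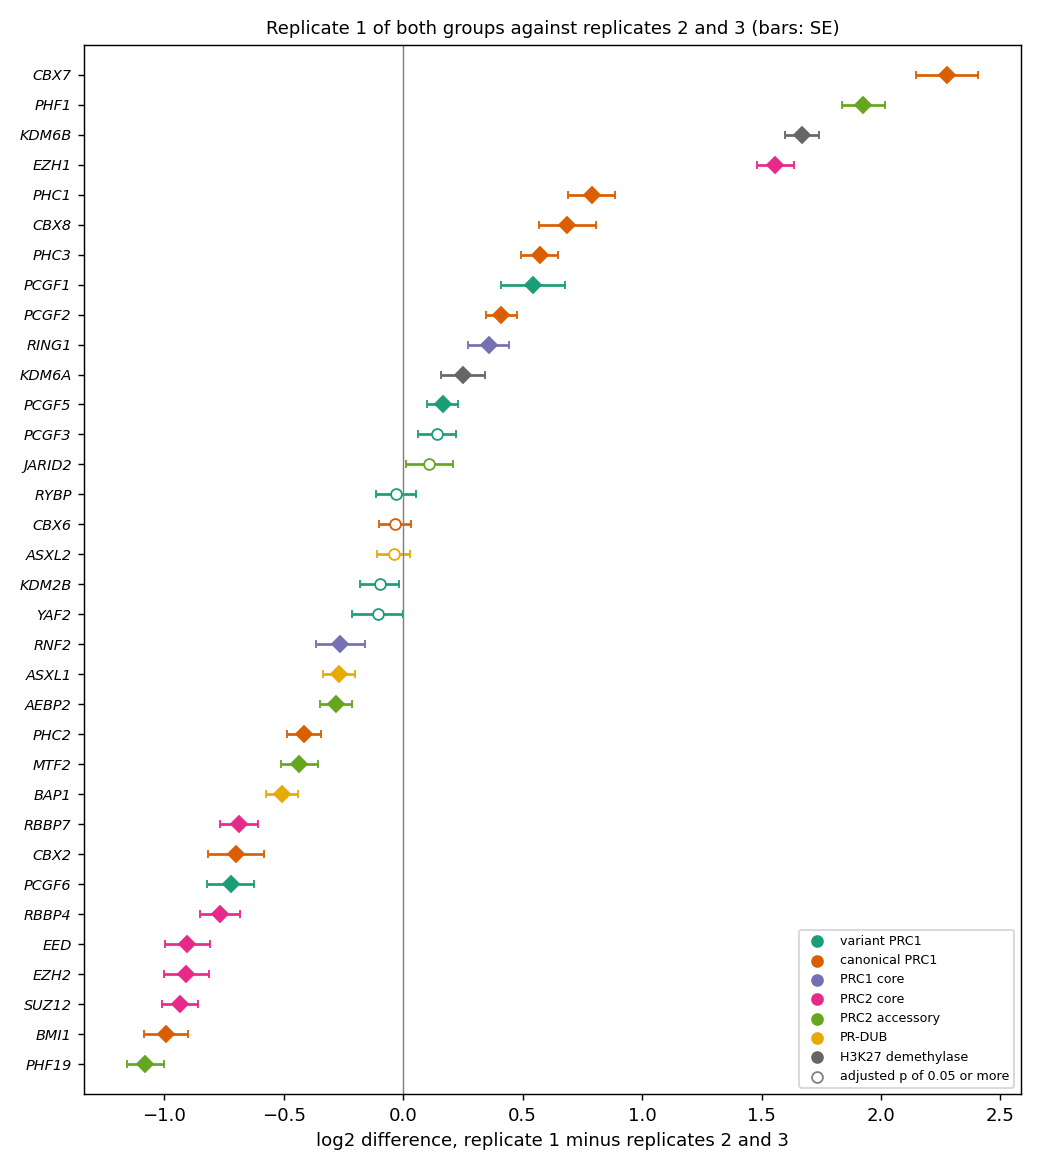
Log2 difference between replicate 1 of both groups and replicates 2 and 3 (horizontal axis) for each of the 34 genes, sorted by value and coloured by complex, with SE bars. Filled diamonds passed at an adjusted p under 0.05 and open circles did not; CBX7, PHF1, KDM6B and EZH1 lie at 1.56 to 2.28, and the PRC2 core genes other than EZH1 at -0.93 to -0.69.

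A further list held 32 genes, namely other subunits and partners of these complexes and the separate histone H2A deubiquitinases USP16 and MYSM1. Of these, 31 were matched to the table and 30 were tested. Within pairs 4 fell (13.3%), 1 rose (3.33%) and 25 did not pass, beside 8.01% and 5.48% of all genes that fell and rose, and the median log2 fold change was -0.03. Without the block edgeR called none, and 0 of the 30 had an unadjusted p under 0.05. AUTS2, a subunit of the PCGF3 and PCGF5 forms of variant PRC1, was at 17.4, 21.3 and 23.0 CPM in the controls and 9.17, 13.8 and 17 CPM in the knockdowns. Its groups did not overlap, and it fell by 0.65 on the log2 scale (edgeR adjusted p = 0.011). MYSM1, another histone H2A deubiquitinase, fell by 0.36 (edgeR adjusted p = 0.040), and HCFC1, a BAP1 partner, by 0.32 (edgeR adjusted p = 0.026). KDM1B, a histone H3 demethylase, rose by 0.40 (edgeR adjusted p = 0.029). The remaining gene of the 5 was CSNK2A2, named after its value was seen. It encodes a casein kinase subunit found with AUTS2 in variant PRC1, and fell by 0.26 (edgeR adjusted p = 0.022). The genes with the highest mean CPM (not scaled by length) that did not pass were OGT, the glycosyltransferase that binds the BAP1 complex, at 0.0034, and FOXK1, which brings BAP1 to DNA, at -0.15.

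HOX genes are classical targets of Polycomb silencing. Of 39, 25 passed the filter on low counts, and within pairs 3 fell, none rose and 22 did not pass. The share that fell was 12%, beside 8.01% of all genes, and the median log2 fold change was -0.17. Without the block edgeR called none, and 1 of the 25 had an unadjusted p under 0.05, beside 6.43% of all genes. HOXB5 was at 16.9, 8.64 and 6.82 CPM in the controls and 7.05, 5.88 and 4.25 CPM in the knockdowns, lower in each pair with overlapping groups, and it fell by 0.86 (edgeR adjusted p = 0.016). HOXB6, at 40.0, 41.8 and 40.9 CPM against 33.9, 32.4 and 33.9 CPM without overlap, fell by 0.29 (edgeR adjusted p = 0.039). HOXB9 fell by 0.27 (edgeR adjusted p = 0.033). The genes with the highest mean CPM that did not pass were HOXB2 and HOXB4, each at -0.10. Summed over all 39 the level was 469, 404 and 407 CPM in the controls and 381, 371 and 378 CPM in the knockdowns.

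The surroundings of the 4 genes that fell within same-numbered pairs were examined for genes whose start lay within 500 kb of theirs. Each start was taken at the 5′ end on the gene's strand. Of 45 tested, 6 passed with the block (13.3%), close to the 13.5% of all genes, and edgeR called none without it. Near PCGF5, 2 of 5 tested neighbours passed, in opposite directions. ANKRD1, a cardiac ankyrin repeat gene and known YAP target starting 242 kb away, rose from 5.80 ± 2.66 CPM (SD, n = 3) to 27 ± 5.53 CPM (SD, n = 3; log2 fold change 2.25, edgeR adjusted p = 0.000227). PPP1R3C, a glycogen-targeting phosphatase subunit starting 470.0 kb away, fell by 2.20 on the log2 scale (edgeR adjusted p = 0.0138), from a control level of only 1.31 ± 0.518 CPM (SD, n = 3). Near KDM2B, 2 of 15 passed. The calcium channel gene ORAI1, starting 45.5 kb away, rose by 0.45, and MLXIP, which encodes a glucose-responsive transcription factor, fell by 0.38. Near RBBP4, KIAA1522 fell by 0.53 and RNF19B by 0.43, of 21 tested, and near RBBP7 none of 4 passed.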

How the data were processed

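Per the labels' protocols, RNA was extracted with either of 2 kits (which library used which is not given) and converted to libraries with a SMARTER mRNA-seq kit. The authors deposited raw counts per gene and FPKM values for 6 libraries. The submitters' processing notes name the build hg38. The read aligner, the counting tool and any use of strand are not given in the sources used here. Each library held 14306733 to 16656630 counts.

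Counts were tested with edgeR 4.0.16 in R 4.3.3 (quasi-likelihood F-test, TMM scaling, filterByExpr, robust estimation) on all genes that passed the filter, with Benjamini-Hochberg adjustment over all 14844 and a threshold of 0.05. CPM were computed on TMM-scaled totals, and FPKM served only for comparing genes by level. The SE of an edgeR log2 fold change was derived as its absolute value divided by the square root of the F statistic. Families' FPKM shares were compared by exact permutation. The comparison has no replicate term, and the replicate number as a block was the alternative listed beside it. Deviations from group means of same-numbered libraries correlated across genes at 0.838, 0.629 and 0.616 for numbers 1, 2 and 3. With replicate 1 apart in both groups, replicates 2 and 3 deviate the other way whatever their number. Correlations between unequal numbers were not computed. These values therefore set replicate 1 apart but cannot show that numbers 2 and 3 are matched, and the labels state no pairing. The common biological variation coefficient reached 32.6% without the block (4 residual degrees of freedom) and 8.17% with it (2). DESeq2 1.42.0, limma 3.58.1, other scalings and filters and left-out libraries were alternatives.

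The genes, lists, contrasts and tests were chosen with earlier results of these data known. Named genes were those past the threshold, the member of each family with the highest FPKM, and in each further list up to 4 that passed and the 2 of highest CPM that did not. Promoters came from RefSeq (GRCh38.p14).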

Additional observations from a re-analysis of the deposited data

How the results depend on the processing

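Over all 6 libraries edgeR called none of the 34 genes without the replicate number, and all 4 calls came with the replicate block. With the block, the number of genes that fell was 4 with DESeq2 (6.14% of all genes fell), 6 with limma-voom (8.56%), 6 with DESeq2 size factors (8.55%), 3 with upper-quartile scaling (6.64%), 10 without a filter (5.51%) and 2 with a mean of at least 5 CPM (9.69%). It was 9 with replicate 1 as a batch term (11.7%), 7 with replicates 2 and 3 alone (13.7%) and 1 with DESeq2 without the block (0.748%). Leaving out single libraries without the block gave none, and leaving out pair 1, 2 or 3 with it gave 8 (14.9%), 1 (4.09%) and 7 (7.29%), so the range was 0 to 8. The number that rose was 0 to 1, RYBP without pair 1, where 12.7% of all genes rose. In edgeR over all 6 libraries without the block, other subunits, HOX genes and neighbours that passed numbered 0. With the block 4 other subunits fell and 1 rose (1 to 8 and 0 to 1 over the other fits with the number or without replicate 1). With it 3 HOX genes fell (1 to 4 over the same other fits). Over those fits 4.09% (without pair 2) to 14.9% (without pair 1) of all genes fell, and 2.01% to 12.7% rose in the same 2 fits. With the block 6 neighbours passed, which were examined in no other fit. PCGF5 passed in all 12 of the fits that held the replicate number or left out replicate 1 of both groups, KDM2B in 11, RBBP7 in 10, RBBP4 in 9, PHC3 in 7, PHF19 in 6, SUZ12 in 4, PHF1 and ASXL2 in 3, PHC1 in 2 and RYBP in 1. The median log2 fold change of the 34 was -0.13 to -0.033 with single libraries left out and reached -0.15 over the pairs left out, and the highest value came without knockdown replicate 1. Where a single replicate 1 library was left out, that of the other group stayed, so the groups then differed in replicate numbers too. The sign differed from that without the block in 81 of 884 pairs of a gene and an alternative, all for genes whose value was below its SE, which was taken as having no direction.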
